A study of Ovis aries with 15 samples.

Results

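The genes described here are the cytosolic translation initiation and elongation factors of the sheep mammary gland. They were taken by symbol: every feature of the deposited table whose symbol starts with EIF or EEF followed by a digit, without the eIF2 kinases (EIF2AK) and the eIF4E-binding proteins (EIF4EBP), and with at least 10 exon reads in at least 6 libraries. Of 24691 features, 52 matched the symbol and 48 passed the read minimum, and all 48 had 10 reads or more in every one of the 15 libraries. The symbols take in genes that are not themselves initiation or elongation factors. EIF2C1, EIF2C2, EIF2C3 and EIF2C4 are older symbols of the Argonaute genes, which bind small RNAs, and counts are also given for the other 44. Those 44 still hold EEF2K, EEF1E1, EIF4ENIF1 and EIF4A3, whose roles are given where they are described, and EIF1AD, a relative of EIF1AX. The 4 features below the minimum were EEF1A2 with 0 to 1 exon reads per library, EIF4E1B with 0 in every library, EIF5A with 0 to 3 on a gene model of 465 bases, and EIF5A2 with 0 to 17. For 4 further factors, listed in the file under LOC numbers, the gene number matched EEF1A1, EIF3A, EIF4A2 and EIF4E2 in the RefSeq annotation of ARS-UI_Ramb_v3.0, a match made after the files were seen, and they are given as related genes and not counted. EIF4GI is an older name of EIF4G1. The libraries do not mark strand, so reads of 6 members cannot be told from those of a feature that overlaps them: EEF1D (TIGD5), EIF2B1 (DDX55), EIF2B3 (LOC101118568), EIF2S1 (ATP6V1D), EIF3J (SPG11) and EIF4A1 (SENP3).

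Mammary parenchyma of 2-year-old primiparous Romney ewes was biopsied by needle on about day 135 of gestation (late pregnancy, 9 libraries) and again on about day 15 after lambing (lactation, 6 libraries). The ewes themselves were managed alike on pasture, and the labels set them apart by the feed of their own dams in early gestation, which was ad libitum (HM), maintenance (MM) or below maintenance (LM), followed in all 3 groups by maintenance feeding, with 3 late pregnancy and 2 lactation libraries in each. Each library is a pool of RNA from several ewes (3 per late pregnancy pool, and 2 or 3 per lactation pool, on which the study's methods and labels differ), the same flock was sampled in both states, and a pool averages away the spread between ewes. P-values therefore measure the spread between pools.

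Initiation begins when eIF2, with GTP, carries the initiator tRNA to the small ribosomal subunit, while eIF3 and the eIF4 cap-binding group bring in the messenger RNA. EIF1 and EIF1AX hold the scanning subunit open, EIF5 and eIF5B finish the search for the start codon and join the large subunit, and eIF2B recharges eIF2. During elongation eEF1A delivers aminoacyl-tRNA, the eEF1B subunits recharge eEF1A, and EEF2 moves the ribosome along by a codon. The messages of the elongation factors, of several eIF3 subunits and of EIF4B belong, like those of the ribosomal proteins, to the TOP class, which starts with a run of pyrimidines and whose translation depends on mTOR signalling. In the lactating gland the mammary epithelium secretes protein at a very high rate.

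Depth, as reads assigned to genes, was 7597938 to 19823166 per library before lambing and 10352962 to 25679416 after it. The 7 main milk protein genes took 13.7 to 23.4% of exon reads before lambing and 71.3 to 75.8% after it, and the reads on the 48 members had a mean of 1.42% ± 0.055 (SD, n = 9) and 0.348% ± 0.027 (SD, n = 6) of the library, or 1.73% ± 0.031 and 1.37% ± 0.046 when the milk protein genes were left out of the total. Levels are given as RPM (reads per 1e6 mapped) on library sizes scaled by TMM (trimmed mean of M-values), per kilobase of exon. Luminal and milk protein markers marked both states (KRT19 at a median of 454 and 666, CSN2 at 30714 and 517584), and skeletal muscle markers, summed, stayed at or under 2.34 RPM. The summed RPM of 6 luminal markers (4 called higher) was 1417 to 1736 before lambing and 2290 to 2551 after it. In the same order it was 353 to 627 and 225 to 372 for 4 fibroblast markers (3 called lower), 140 to 192 and 85.8 to 124 for 3 endothelial markers (all lower), 69.1 to 91.4 and 46.8 to 58.8 for 7 leukocyte markers (4 lower, 1 higher), and 74.0 to 160 and 6.59 to 22.4 for 6 genes of dividing cells (all lower). Of 5 myoepithelial markers 2 were lower and 2 higher, and of 3 adipocyte markers tested 0 were called. The part of these shifts in the results below was not tested, and in bulk tissue fewer cells of a type and less RNA per cell cannot be told apart. One library stood apart on intron reads: the lactation HM pool 1 had 13.2% of its gene reads on introns, against 5.85 to 6.68% in the other 5 lactation libraries.

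The comparison of the states asked how the messages for the translation machinery differed between the gland before lambing and the secreting gland. In the edgeR quasi-likelihood test on exon reads 16 of the 48 members passed an adjusted p of 0.05 as lower in lactation, 23 as higher, and 9 did not pass. Over all 13345 genes tested 35.2% were lower and 33.1% higher, so the share of members called lower (33.3%) was near the background and the share called higher was 47.9%. Without the Argonaute genes the counts were 16 lower and 19 higher of 44. The median log2 change of the members was 0.12, beside -0.03 over all genes tested. State groups that did not overlap at all were seen for 14 members lower in lactation and 15 higher, where 20.0% of all genes tested had lower and 20.2% higher lactation levels without overlap. By role, all 4 elongation factors were lower, as were 8 of 11 eIF3 subunits, while 4 of 5 eIF2B subunits, both joining factors and all 3 eIF4G genes were higher. For the joining factors 0 of 2, and for eIF2B 2 of 5, were still called higher under the upper quartile, milk-free and quantile scalings described next.

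Among the settings of scale, upper quartile factors gave 23 lower and 15 higher, library sizes without the milk protein genes 23 and 14, and limma on the authors' quantile-normalized RPKM 24 and 17, with medians over all genes tested of -0.18, -0.24 and -0.05. Shares of all genes called on exon reads under these scalings are not given, so the counts are descriptions without a background. Plain library size moved the median of all genes to -1.94 and put all 48 members lower. Relative to that median, all 16 lower members were below it and all 23 higher members above it. All 16 lower calls, and 14 of the 23 higher calls, held under each of TMM, DESeq2, RLE, upper quartile, milk-free and quantile scaling. The 14 were EIF1, EIF2S2, EIF2D, EIF5, EIF2B1, EIF2B5, EIF3J, EIF4G2, EIF4G3, EIF4GI, EIF4H, EEF1E1, EIF2C2 and EIF2C4, and the signs of EIF2B2, EIF4E and EIF6 turned under at least 1 of them.

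**Figure D1:**
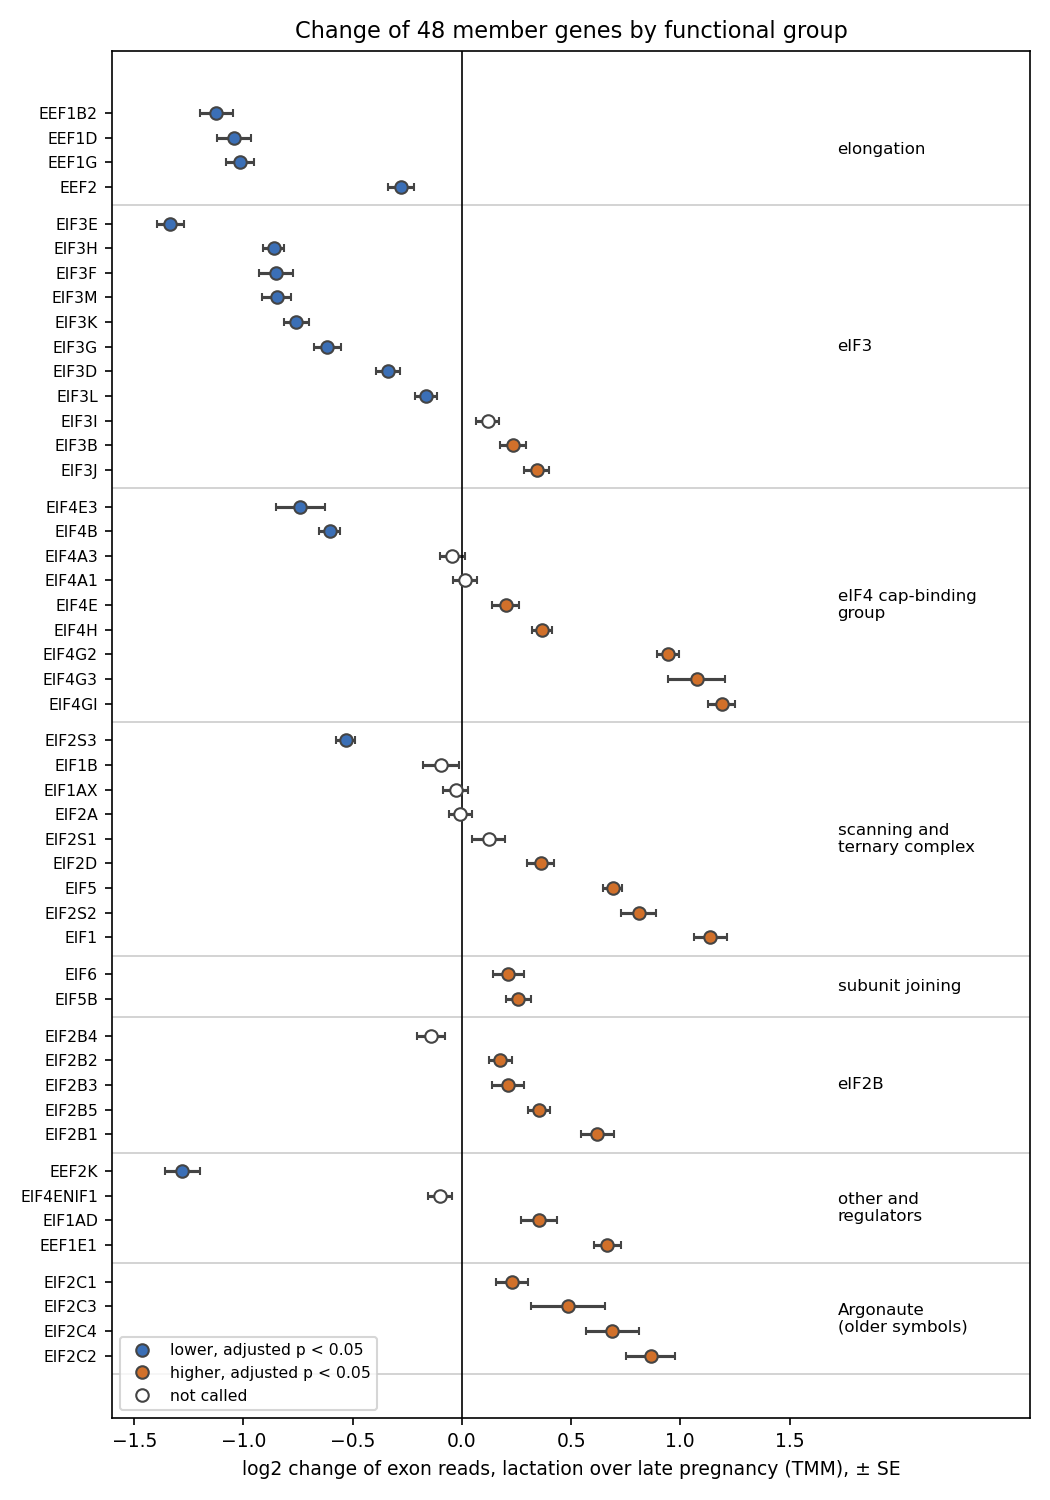
Log2 change of exon reads (lactation over late pregnancy, TMM scaling) for the 48 members, arranged by role. Points are the fitted changes with bars of 1 SE, blue for lower, orange for higher and white for not called (16, 23 and 9 members); all 4 elongation factors lie below 0 and the 3 eIF4G genes lie between 0.95 and 1.19.

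The elongation factors took more of the members' reads in late pregnancy than any other role. EEF1B2, the exchange factor that recharges eEF1A (chromosome 2, 207198180 to 207201926 in the coordinates of the deposited table, whose build is Oar_v3.1 in the submitters' notes and version 3.2 in the study's methods), had levels of 482 to 638 in late pregnancy with a median of 546, and of 209 to 278 in lactation with a median of 258. No lactation library reached the lowest late pregnancy library, and the level was 2.18-fold lower (log2 change -1.13, SE 0.08, adjusted p = 7.5e-11). EEF1G, the scaffold of the eEF1 complex (chromosome 21, 40303409 to 40312785), ran from 505 to 638 and then from 250 to 307, 2.02-fold lower. EEF1D, a further exchange subunit, went from a median of 326 to 164 with a log2 change of -1.04 (SE 0.08), again with no overlap. These 3 subunits thus fell by similar amounts. EEF1A1 itself, the related gene that binds the aminoacyl-tRNA, was at 1118 to 1204 and then 480 to 595 (log2 change -1.10, SE 0.06, adjusted p = 5.4e-12), but 11.9% of its exon reads were uniquely placed, so its level may hold reads of similar sequences.

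EEF2, which moves the ribosome along the message (chromosome 5, 17593935 to 17602337), was the exception in size. Its late pregnancy levels were 460 to 550 with a median of 505 and its lactation levels 386 to 475 with a median of 398. The groups overlapped by 1 lactation library, and the log2 change was -0.28 (SE 0.06, adjusted p = 0.00038). Within libraries the ratio of EEF2 to EEF1A1 rose from a median of 0.425 to 0.758, a difference of 0.82 on the log2 scale (exact permutation test, two-sided, adjusted p = 0.00037 over 13 pairs), and on uniquely placed reads the difference was 0.44. EEF1B2 over EEF1A1 was 0.413 to 0.540 in late pregnancy and 0.420 to 0.498 in lactation, and that difference of -0.02 (SE 0.06) was not called on all reads (exact permutation test, adjusted p = 0.69). On uniquely placed reads it was -0.40 with an adjusted p of 0.0019 by the same exact test, so the ratio depends on how the reads of EEF1A1 were placed.

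The order of the members changed at its top. In late pregnancy EEF1G, EEF1B2 and EEF2 had the highest mean levels (559, 548 and 498), followed by EEF1D at 332, and the ranges of the first 3 overlapped. In lactation EEF2 (411), EIF1 (343) and EIF4G2 (338) led, ahead of EEF1G (276) and EEF1B2 (251), and the ranges of EEF2 and EIF1, of EIF1 and EIF4G2, and of EEF1G and EEF1B2 overlapped, as did those of EIF1 and EEF1G. Of all reads on members, EEF1B2 held 10.1% in late pregnancy and 5.08% in lactation, while EIF4G2 went from 8.15 to 17.1%.

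**Figure D2:**
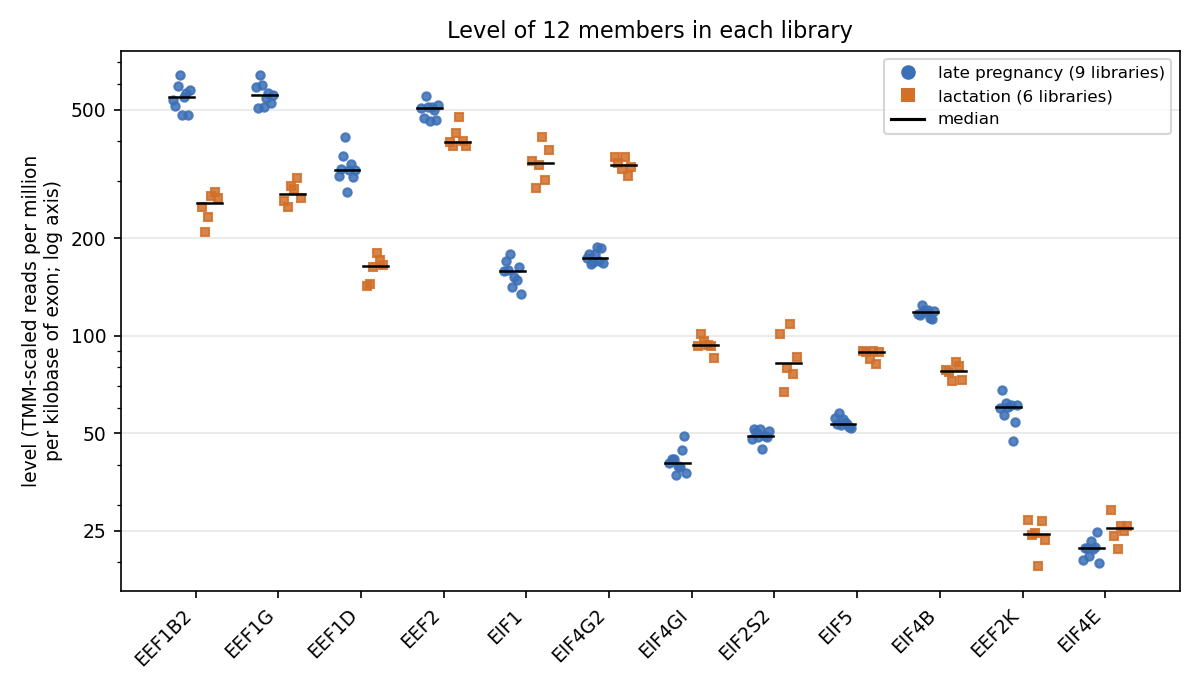
Level of 12 members in each of the 15 libraries (TMM-scaled RPM per kilobase of exon, log axis; circles late pregnancy, squares lactation, lines the medians). EEF1B2, EEF1G and EEF1D show no overlap and lie lower in lactation, EEF2 overlaps, and EIF1, EIF4G2, EIF4GI, EIF2S2 and EIF5 lie higher in lactation without overlap.

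The eIF3 complex, the largest initiation factor, was represented by 11 members, of which 8 fell, 2 rose and 1 did not pass. EIF3E (chromosome 9, 68888004 to 68935778) had the largest decrease of any member. Before lambing its levels ran from 181 to 223 around a median of 206, and after it from 74.9 to 88.3 around 81.9, 2.52-fold lower (log2 change -1.33, SE 0.06, adjusted p = 1.5e-13). EIF3H, EIF3F and EIF3M followed with log2 changes of -0.86, -0.85 and -0.85 and no overlap between the states, although 77.0% of the exon reads of EIF3F were uniquely placed. The log2 change was -0.76 (SE 0.06) for EIF3K, second to EIF3E in mean level in late pregnancy and the highest subunit in lactation, whose ranges were 173 to 205 and 103 to 133. EIF3L, which went from a median of 42.9 to 38.0, changed by -0.16 with overlapping groups. These 6 subunits share the core of the mammalian complex that is built on PCI and MPN domains, and all 6 were called lower. The related gene EIF3A, a further subunit of that core, was called higher (log2 change 0.44), so the core did not fall as a whole.

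The member subunits outside that core were divided. EIF3G, which has an RNA-binding domain, fell from a median of 134 to 88.6 (log2 change -0.62, SE 0.06), and EIF3D, which can itself bind the cap, fell from 63.2 to 51.9 (-0.34, SE 0.05), both without overlap. EIF3I, at 57.1 to 68.8 and 65.0 to 74.5, did not pass (log2 change 0.12, SE 0.05, adjusted p = 0.050), and under other scalings it was called lower (quantile) or higher (DESeq2). EIF3B, the scaffold of the smaller module, rose from a median of 28.6 to 33.4 (log2 change 0.23), a call that ended under the upper quartile, milk-free and quantile scalings. EIF3J, a loosely bound subunit, rose from 21.9 to 28.1 in late pregnancy to 29.3 to 35.0 in lactation (log2 change 0.34, SE 0.06, adjusted p = 3.2e-05). The related gene EIF3A, the largest subunit of the core and not one of these outer subunits, was at 40.0 to 46.0 and then 57.1 to 61.2 (log2 change 0.44, SE 0.04). The 2 members with the lowest late pregnancy levels, EIF3J and EIF3B, were thus the 2 that were higher. Within a library the highest eIF3 level was 6.77 to 10.2 times the lowest in late pregnancy (median 8.30) and 3.47 to 4.49 times in lactation (median 3.68), and multiplying a library by any factor leaves this ratio as it is. The narrowing was not particular to eIF3. The median of this ratio went from 715 to 429 over all 48 members and from 5.38 to 3.80 over the 5 eIF2B subunits.

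**Figure D3:**
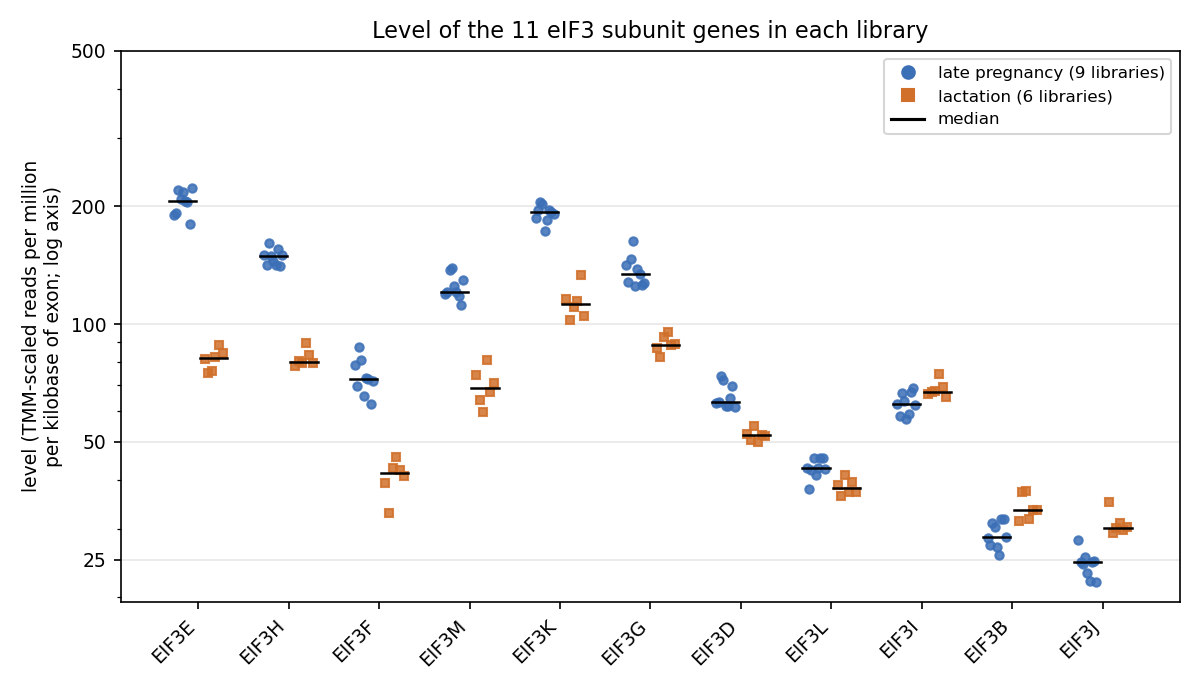
Level of the 11 eIF3 subunit genes in each library (TMM-scaled RPM per kilobase of exon, log axis; circles late pregnancy, squares lactation, lines the medians), arranged from the largest decrease to the largest increase. EIF3E falls from a median of 206 to 81.9 and EIF3J rises from 24.6 to 30.1, so the subunits lie closer together in lactation.

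In the cap-binding group, which unwinds the message and bridges it to eIF3, 5 of 9 members rose, 2 fell and 2 did not pass. The scaffold EIF4GI (chromosome 1, 201063437 to 201081806) had the largest increase of any member. Late pregnancy libraries lay between 37.1 and 49.0 with a median of 40.4, and lactation libraries between 85.6 and 101 with a median of 93.5, 2.28-fold higher (log2 change 1.19, SE 0.06, adjusted p = 8.5e-13). EIF4G2, a relative of the scaffold that lacks the eIF4E site and works without the cap (chromosome 15, 41432006 to 41443364), ran from 166 to 188 and then from 313 to 357, 1.93-fold higher. EIF4G3, the third scaffold, was low in both states, with medians of 3.73 and 7.26 (log2 change 1.07, SE 0.13). None of the 3 overlapped between states. As a ratio within libraries, EIF4G2 over EIF4G1 fell from a median of 4.32 to 3.61 (log2 difference -0.25, exact permutation test, adjusted p = 0.0029), while EIF4G3 over EIF4G1 differed by -0.12 (SE 0.14) and was not called (exact permutation test, adjusted p = 0.40).

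EIF4E, the cap-binding protein, had levels of 19.9 to 24.8 and 21.9 to 29.0, and its log2 change of 0.20 (SE 0.06, adjusted p = 0.0064) ended as a call under the upper quartile, milk-free and quantile scalings. EIF4E3, a relative of EIF4E, fell from 2.44 to 3.27 down to 1.27 to 1.97 without overlap, and its ratio to EIF4E went from 0.109 to 0.156 down to 0.0437 to 0.0792 (log2 difference -1.005, exact permutation test, adjusted p = 0.00037). EIF4E2 over EIF4E rose from a median of 0.486 to 0.547 (log2 difference 0.20, exact permutation test, adjusted p = 0.032), but 60.3% of the reads of EIF4E2 were uniquely placed and leaving out any of 7 libraries (late pregnancy HM pool 2, LM pool 3 and MM pools 1 and 2, lactation LM pools 1 and 2 and MM pool 1) ended that call. Without lactation LM pool 1 the difference was 0.13.

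The helicase EIF4A1 had medians of 62.2 and 63.6 (log2 change 0.01, SE 0.06, adjusted p = 0.83), its long model of 4298 bases overlaps SENP3, and it was called lower under the upper quartile, milk-free and quantile scalings and under plain library size. EIF4A2, the related gene that encodes the second form of the helicase, fell from 241 to 200 (log2 change -0.28, SE 0.06), and the ratio of EIF4A2 to EIF4A1 fell from a median of 3.97 to 3.17 (log2 difference -0.29, exact permutation test, adjusted p = 0.0087). EIF4A3, the helicase of the exon junction complex, did not pass under TMM (-0.04, SE 0.06) and was called lower under the same other scalings, with a ratio to EIF4A1 that differed by -0.06 (SE 0.06, exact permutation test, adjusted p = 0.33). Of the helicase cofactors, EIF4B fell from 112 to 125 down to 72.4 to 83.2 (log2 change -0.61, SE 0.05, adjusted p = 7.4e-10) and EIF4H rose from 69.9 to 75.4 up to 89.0 to 107 (0.37, SE 0.05), so the messages for 2 cofactors of the same enzyme changed in opposite directions.

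Among the 9 members of the ternary complex and scanning, 4 rose, 1 fell and 4 did not pass. EIF1, the guard of start codon choice (chromosome 11, 41390802 to 41393349), had a median of 158 before lambing, between 135 and 179, and of 342 after it, between 287 and 411, 2.20-fold higher (log2 change 1.14, SE 0.08, adjusted p = 6.4e-11). Its paralog EIF1B had medians of 16.9 and 15.5 and did not pass (log2 change -0.10, SE 0.08), and the ratio of EIF1B to EIF1 fell from 0.0949 to 0.114 down to 0.0301 to 0.0554 (log2 difference -1.23, exact permutation test, adjusted p = 0.00037). EIF5, which activates GTP hydrolysis by eIF2, went from a median of 53.5 to 89.2 without overlap (log2 change 0.69, SE 0.04), and EIF2D, an alternative tRNA carrier, from 10.9 to 14.3 (0.36, SE 0.06). EIF1AX, the partner of EIF1, and EIF2A, which can bring initiator tRNA without eIF2, had log2 changes of -0.03 and -0.01 and did not pass. EIF1B, EIF1AX and EIF2A were each called lower under the upper quartile, milk-free and quantile scalings.

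The 3 subunits of eIF2 each took a separate course. EIF2S3, the gamma subunit that binds GTP and the tRNA, fell from 88.3 to 102 down to 65.1 to 68.2 (log2 change -0.53, SE 0.04, adjusted p = 1.6e-09). EIF2S2, the beta subunit, rose from 44.5 to 51.5 up to 67.1 to 109 (0.81, SE 0.08, adjusted p = 2.5e-08). EIF2S1, the alpha subunit that the stress kinases phosphorylate, had medians of 19.3 and 19.7 and did not pass (0.12, SE 0.08), a change of 0.20 that was called on uniquely placed reads. For EIF2S1 49.6% and for EIF2S2 33.2% of exon reads were uniquely placed, so levels of both may include reads of similar sequences. On the reads that were counted, the gamma subunit had the higher median before lambing (96.5 against 48.8) and the beta subunit after it (82.5 against 65.9).

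Both members that act at subunit joining were called higher by small amounts. EIF5B, the GTPase of joining, went from a median of 29.4 to 34.2 (log2 change 0.26, SE 0.06) and EIF6, which keeps the large subunit free until it is needed, from 39.0 to 44.1 (0.21, SE 0.07), and both calls ended under the upper quartile, milk-free and quantile scalings. Relative to EIF5, EIF5B fell within libraries from a median of 0.540 to 0.389 (log2 difference -0.43, exact permutation test, adjusted p = 0.00037). Of the 5 subunits of eIF2B, the exchange factor that recharges eIF2, EIF2B1 (0.62, SE 0.07) and the catalytic EIF2B5 (0.35, SE 0.05) rose without overlap, EIF2B2 and EIF2B3 rose by 0.18 and 0.21 with overlap, and EIF2B4 did not pass (-0.14, SE 0.06). Under the upper quartile, milk-free and quantile scalings EIF2B4 was called lower, and EIF2B2 and EIF2B3 were not called. EIF2B5 went from 23.7 to 29.0 up to 31.7 to 35.1, and EIF2B1, whose model overlaps DDX55, from 4.92 to 6.80 up to 7.81 to 9.97.

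EEF2K, the kinase that phosphorylates and inactivates EEF2 (chromosome 24, 19931527 to 19983123), had the second largest decrease of any member. Its median was 60.0 before lambing, in a range of 47.4 to 68.1, and 24.4 after it, in a range of 19.4 to 26.9, 2.43-fold lower (log2 change -1.28, SE 0.08, adjusted p = 2.3e-11). The ratio of the kinase to EEF2 within a library went from 0.0951 to 0.144 down to 0.0407 to 0.0676, with no overlap (log2 difference -1.01, exact permutation test, adjusted p = 0.00037). EEF1E1, an accessory protein of the aminoacyl-tRNA synthetase complex despite its symbol, rose from a median of 16.5 to 27.1 (0.67, SE 0.06), and EIF1AD, a relative of EIF1AX, from 9.12 to 11.7 (0.35, SE 0.08). EIF4ENIF1, which carries EIF4E into the nucleus, did not pass (-0.10, SE 0.06), and was called lower under the upper quartile, milk-free and quantile scalings. All 4 Argonaute genes were called higher at low levels. EIF2C2 led them with medians of 1.31 and 2.30 (0.87, SE 0.11), EIF2C4 (0.69) followed, and EIF2C1 (0.23) and EIF2C3 (0.49) overlapped between states and lost their calls under the upper quartile and milk-free scalings.

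**Figure D4:**
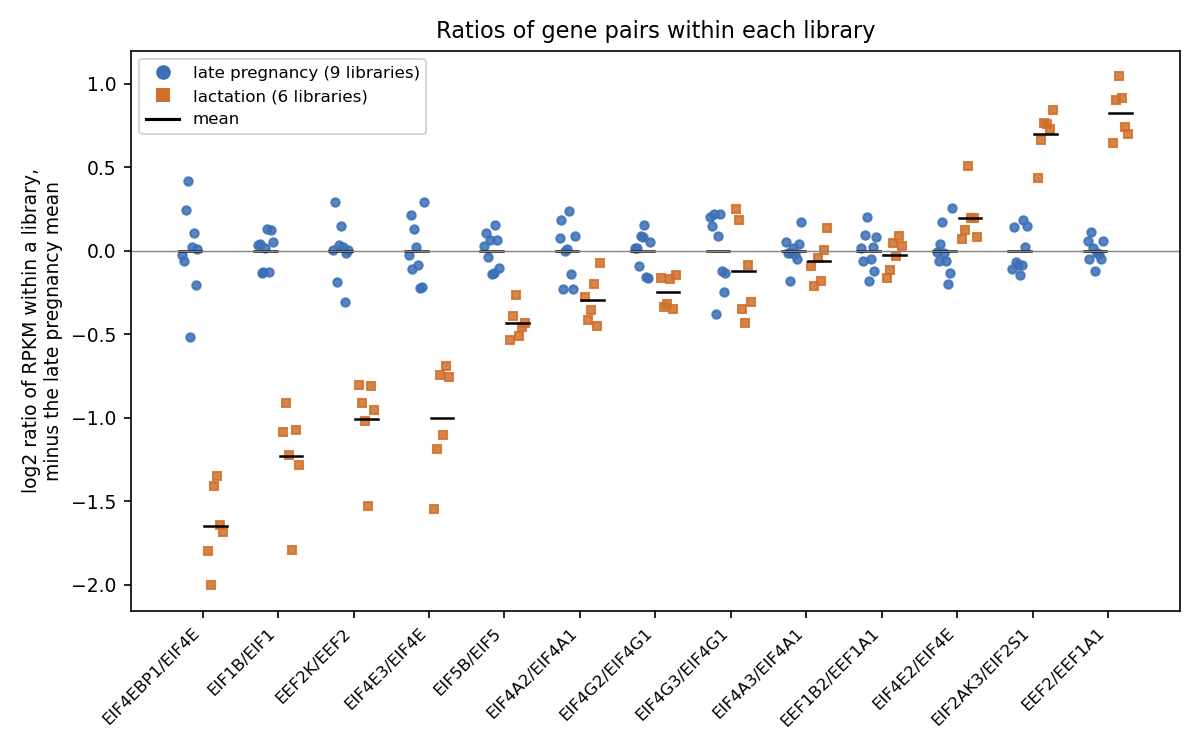
Log2 ratio of RPKM of 13 gene pairs within each library, less the late pregnancy mean of the pair (circles late pregnancy, squares lactation, lines the means). The ratios EIF4EBP1/EIF4E, EIF1B/EIF1, EEF2K/EEF2 and EIF4E3/EIF4E lie lower in lactation by 1.005 to 1.65, and EIF2AK3/EIF2S1 and EEF2/EEF1A1 lie higher by 0.70 and 0.82, all without overlap.

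Ratios within a library are not altered by a factor that multiplies the whole library, though quantile normalization does alter them. Of 15 pairs listed, 13 had enough reads (EEF1A2 and the EIF5A genes did not), and 10 of the 13 differed between states at an adjusted p under 0.05 in exact two-sided permutation tests over every choice of 6 of the 15 libraries, where an unadjusted 0.0002 is the smallest p that is possible. No share over other gene pairs was computed. With 35.2% of all genes tested lower and 33.1% higher, many other pairs may differ too, and the count is a description only. Beside the pairs above, EIF4EBP1, the repressor that competes with eIF4G for EIF4E, fell against EIF4E from a median of 12.8 times its level to 4.02 times, with no overlap (log2 difference -1.65, exact permutation test, adjusted p = 0.00037). EIF2AK3, the kinase of the endoplasmic reticulum that phosphorylates EIF2S1, rose against its substrate from a median of 0.425 to 0.747 (log2 difference 0.70, exact permutation test, adjusted p = 0.00037).

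Intron reads, taken as whole-gene less exon reads, can come from unspliced RNA, and also from exons that are not annotated, overlapping transcripts or residual DNA, which these counts cannot tell apart. They were tested in the same way for the 47 members with enough of them. On these intron reads edgeR called 4 members lower and 21 higher after lambing, where 29.0% of 10344 genes were lower and 29.0% higher, and the median change was 0.17 beside -0.01 over all genes. Without the lactation HM pool 1 the counts were 4 and 20, and with milk-free library sizes 16 and 5. Shares of all genes under these settings are not given. The 4 lower members under TMM were EEF2K, EIF4E3, EIF1AX and EIF2B2, a count that was 2 without the lactation MM pool 1. EIF4E3 had 1 to 12 intron reads per lactation library, and its state groups overlapped. EIF1AX (log2 change -0.20, edgeR adjusted p = 0.040) was not called without the lactation HM pool 1, where EIF2B4 was called lower. Exon and intron counts come from the same libraries.

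The intron reads of the elongation factors did not follow their exon reads. For EEF2 they rose from 44.5 to 70.0 RPM before lambing to 98.2 to 130 RPM after it (log2 change 1.03, SE 0.11, adjusted p = 1.1e-08), while its exon reads changed by -0.28. For EEF1B2 the intron change was 0.74 and the exon change -1.13, on medians of 74 and 41.5 intron reads per library. EEF1G (0.39 and -1.01) and EEF1D (0.01, not called, and -1.04) showed the same order. To test the difference itself, a comparison added after the values were seen, the log2 ratio of scaled exon to scaled intron reads was taken in each library and compared between states by exact permutation. It was lower in lactation for 18 of 47 members and higher for 9, and not called for 20 (adjusted p under 0.05 over all 9801 genes tested), where 15.4% of these genes were lower and 18.0% higher. Without the lactation HM pool 1 the counts were 18 and 6. With milk-free library sizes for both kinds of reads they were 11 and 16, beside 4.86% lower and 29.1% higher over all genes.

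All 4 elongation factors were among the 18, with differences of -1.87 for EEF1B2, -1.42 for EEF1G, -1.31 for EEF2 and -1.06 for EEF1D (exact permutation tests, adjusted p = 0.0019 each, the smallest that these tests gave). So were 7 eIF3 subunits, led by EIF3E at -1.62 and EIF3H at -1.20, and EIF4B at -1.27 and EIF2S3 at -1.05. The TOP list among the members was EEF1B2, EEF1D, EEF1G, EEF2, EIF3E, EIF3F, EIF3H and EIF4B. It was drawn up with these values known and without a search of sequences. Its counts can therefore follow from the choice of genes and are a description only. On exon reads 8 of 8 were lower (median -0.94), beside 35.2% of all genes tested. On intron reads 6 were higher and 0 lower, beside 29.0% each way over all genes. The exon to intron ratio was lower for 8 of 8, beside 15.4% of all genes. Of the 39 members outside the list that were tested, 10 had the lower ratio as well, EIF3K, EIF3M, EIF3D, EIF3G and EIF2S3 among them. With milk-free library sizes only EIF3K, EIF3M and EIF2S3 of these 10 kept the call, and EIF3D and EIF3G did not. Under that scaling 8 of 8 on the list still had the lower ratio. On intron reads 1 of the list, EEF2, was then higher and 1, EEF1D, lower. For the list, the lower ratio thus kept its calls and the rise on introns did not. Without the lactation HM pool 1, 8 of the list had the lower ratio and 5 were higher on introns.

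Other members changed in the same direction on both kinds of reads. EEF2K was lower on introns by 1.38 on the log2 scale, from 205 to 293 RPM to 60.5 to 116 RPM, and the ratio of exon to intron reads differed by 0.11, which was not called (exact permutation test, adjusted p = 0.37). With milk-free library sizes that difference was 0.36 and was called (exact permutation test, adjusted p = 0.029). EIF1 rose by 1.28 on introns and 1.14 on exons, EIF5 by 0.74 and 0.69, and EIF4G3 by 0.91 and 1.07, and none of these differences was called. EIF4GI and EIF4G2 rose more on exons than on introns (1.19 against 0.72, and 0.95 against 0.41), as the ratio test called for both, and EIF2S2 more on introns (1.31 against 0.81), a call that ended with milk-free library sizes (-0.27, exact permutation test, adjusted p = 0.27). EEF1E1 rose on exons with an intron change of -0.06, and the difference of 0.75 was called.

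**Figure D5:**
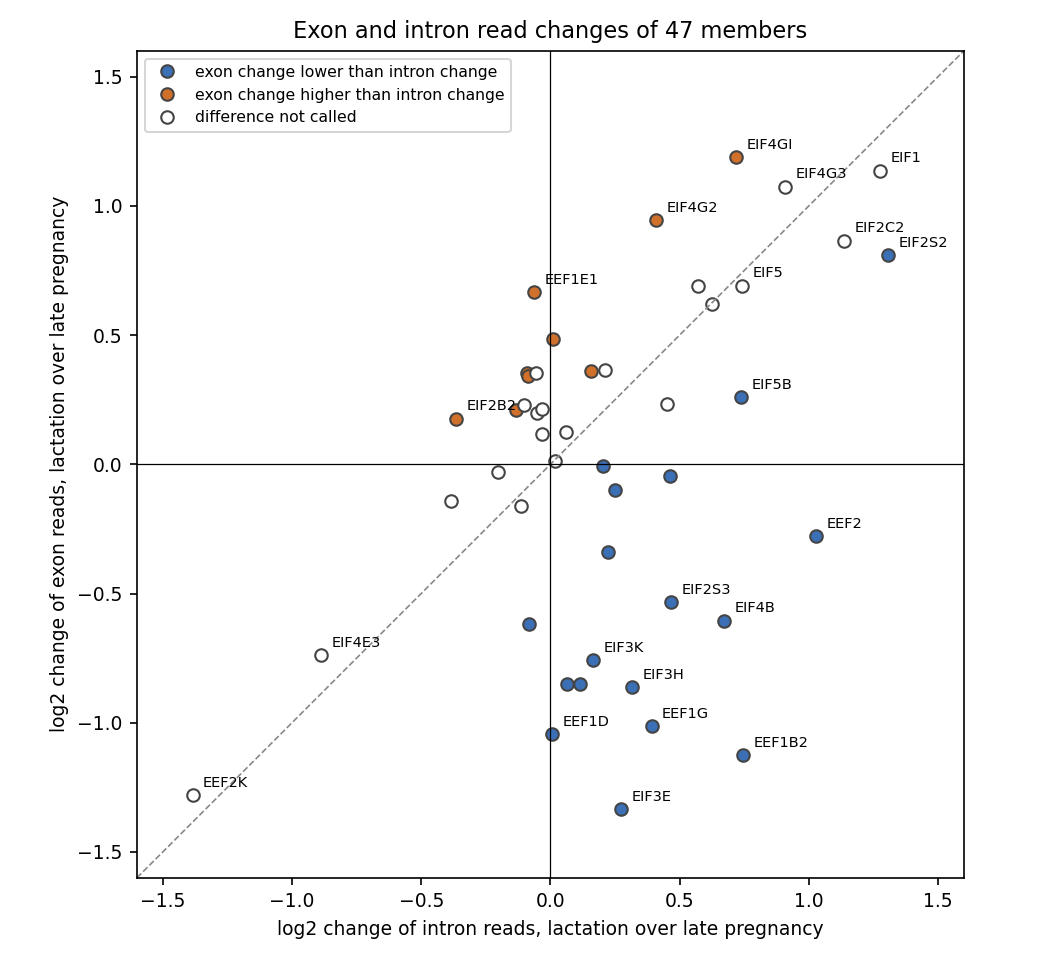
Log2 change of intron reads (x axis) and of exon reads (y axis) between the states for 47 members, each on its own TMM scale; the dashed line marks equal changes. Blue points (18 members, with EEF1B2, EEF2 and EIF3E among them) had a lower and orange points (9 members, EIF4GI and EIF4G2 among them) a higher exon than intron change by exact permutation test, and EEF2K lies near the line.

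Dam nutrition was tested within each state and as an interaction with it. In the deposited library names all LM libraries share a lane code, and most HM and MM libraries carry another. Feed and lane therefore cannot be fully told apart. In late pregnancy 0 of 48 members were called by the edgeR F-test over the 3 feed groups (0% of 13747 genes). At an unadjusted p under 0.05 there were 0 members (4.15% of genes), and DESeq2 called 0 members and 20 genes. In lactation 0 members were called (0.00849% of 11777 genes), with 2 at an unadjusted p under 0.05 (7.61% of genes). DESeq2 called 0 members and 36 genes, and edgeR without the count filter called 0 members and 391 of 17602 genes. The interaction called 0 members (0% of 13345 genes), with 0 at an unadjusted p under 0.05 (6.56% of genes), and DESeq2 called 0 members and 21 genes. The difference between states had the same sign in all 3 feed groups for all 39 called members, and in 7 of the 9 that were not called.

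Genes of the same pathway that are not members moved in both directions. Of the 6 eIF2 kinase and phosphatase genes 4 rose and 0 fell: EIF2AK2, the kinase that senses double-stranded RNA (log2 change 1.02, SE 0.11), EIF2AK3 (0.83, SE 0.06), and the phosphatase subunits PPP1R15A (0.68, SE 0.10) and PPP1R15B (1.17, SE 0.07), which reverse the phosphorylation. Of 7 inhibitors and kinases of the cap-binding group 2 fell and 4 rose. PDCD4, an inhibitor of the EIF4A helicase, went from 182 to 257 down to 44.3 to 59.4 (log2 change -2.13, SE 0.09, adjusted p = 4.8e-14), EIF4EBP1 from 207 to 354 down to 76.4 to 129 (-1.45, SE 0.11), and EIF4EBP2, its relative, from a median of 24.6 up to 47.8 (1.00, SE 0.09). MKNK2 and MKNK1, kinases that phosphorylate EIF4E, rose by 1.82 and 1.09. LARP1, a binder of TOP messages, rose by 0.60.

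Of 5 genes for poly(A) binding 3 fell and 1 rose. PABPC1, the poly(A)-binding protein and itself a TOP message, went from 626 to 763 down to 286 to 349 (log2 change -1.04, SE 0.06), with an intron change of -0.03 that was not called. Of 60 cytosolic ribosomal protein genes 59 fell (median log2 change -0.94, range -1.58 to -0.22), and on intron reads 12 fell, 8 rose and 40 did not pass (median -0.04). Of 4 release and recycling factors GSPT1 (0.93) and ABCE1 (0.26) rose and DENR (-0.43) fell, and both initiation helicases DDX3X (0.51) and DHX29 (0.24) rose.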

How the data were processed

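The authors sequenced TruSeq v2 libraries, which do not mark strand, as paired reads on an Illumina instrument and mapped them to the sheep genome (version 3.2 in the methods, Oar_v3.1 in the submitters' processing notes) with CLC Genomics Workbench. The deposited table holds counts of reads per gene and exon, total and uniquely placed, RPKM by the authors, and their quantile-normalized values. RPKM recomputed from the deposited counts differed by at most 3.5e-07 of its value. Columns with the authors' own fold changes and tests were not used. Promoter and protein sequences were not analysed here.

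Exon reads (whole-gene reads where no transcript is annotated) of all 15 libraries were fitted with edgeR 4.0.16 (R 4.3.3): filterByExpr by state, TMM, quasi-likelihood F-test without covariates, Benjamini-Hochberg over all 13345 genes, called at 0.05. The SE of a log2 change is its size over the root of F. Intron reads are whole-gene less exon reads. Ratios of exon to intron reads had 0.5 reads added and were adjusted over the 9801 genes tested on both. DESeq2 1.42.0 and limma 3.58.1 (log2 of values plus 1) served as alternatives. The exact tests ran in numpy 2.4.6 and pandas 2.3.3 under Python 3.11.15. The edgeR and DESeq2 fits were checked on simulated counts. No 2 libraries agreed within sampling noise. Depth per library is given in the results; reads had no molecular identifiers, so error is given as the spread between libraries.

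Any member may be named; full values are given, per role, for the member with the highest level and the called members with the largest change each way, and for the listed pairs, and further members are named with fewer values. Members, lists and tests were chosen with earlier results of these data known. Lists of pathway genes and cell markers are described by counts, and the TOP list was added after the values were seen. Alternatives covered scaling, filters, reads counted, a nutrition covariate, a replicate block and leaving out each library.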

Additional observations from a re-analysis of the deposited data

Results flagged for a closer look

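In 78 groups of values from 1 state, 6 had a library whose gap to the nearest of the others was large against the range of the group, and chance gives about 1 in 20 such groups. The level of EEF1E1 was 19.0 in the late pregnancy HM pool 1, where the others ran from 15.4 to 17.2. EIF4A3 was at 33.5 in the late pregnancy MM pool 2, beside 27.3 to 30.3 in the rest. In lactation, EIF3J was at 35.0 in the HM pool 1, the library with the high intron share, against 29.3 to 31.0 elsewhere, and EIF4A1 was at 55.6 in the MM pool 2, against 62.4 to 66.5. The log2 ratio of EIF4E2 to EIF4E was -0.52 in the lactation LM pool 1, with the others from -0.96 to -0.83, and that of EEF2K to EEF2 was -4.62 in the lactation LM pool 2, with the others from -4.10 to -3.89. Without that pool the difference of EEF2K/EEF2 between states was -0.90.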

How the results depend on the processing

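The counts of 16 lower and 23 higher members ran over 16 to 17 and 22 to 24 when 1 library was left out, and the median over 0.09 to 0.15. Plain library size gave 48 lower and 0 higher with a median of -1.78. Upper quartile factors gave 15 higher (median -0.029), milk-free library sizes 14 (median -0.0886), and the median was -0.0808 for quantile-normalized RPKM, 0.0706 without a filter, 0.0367 with 10 reads in every library and 0.0767 on whole-gene reads.

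With plain library size these changes turned: EEF1E1 -1.24, EIF1 -0.77, EIF2B1 -1.29, EIF2B5 -1.55, EIF2C1 -1.68, EIF2C2 -1.05, EIF2S1 -1.78, EIF3J -1.56, EIF4A1 -1.89, EIF4E -1.70, EIF4G2 -0.96, EIF4G3 -0.82, EIF4GI -0.72, EIF5 -1.21, EIF5B -1.65 and EIF6 -1.69. Over all genes that setting moved the median to -1.94. EIF4A1 was -0.14 with upper quartile factors, -0.20 with milk-free sizes and -0.26 on quantile-normalized RPKM, EIF4E was -0.0104 with milk-free sizes and EIF6 -0.044 on quantile-normalized RPKM.

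Intron counts were 7 lower with upper quartile factors, 28 lower and 3 higher with plain library size, 16 lower and 5 higher with milk-free sizes, and 13 higher with 10 reads in every library. Without 1 library they ran over 2 to 5 lower and 18 to 21 higher. Milk-free sizes gave 11 members with the lower and 16 with the higher exon to intron ratio, and leaving out 1 library 16 to 18 and 6 to 10. The EIF4E2/EIF4E difference ran over 0.13 to 0.23, and EEF1B2/EEF1A1 was -0.40 on uniquely placed reads. The share of reads on the members was 1.503% on uniquely placed reads in late pregnancy, and 1.73% and 1.37% in the 2 states without the milk protein genes. Every nutrition count of members was 0 under each alternative run. Of the 25 members with full values, each kept its side of the threshold in all 375 fits without 1 library, and each kept its direction except EIF4A1, which was not called and turned to -0.00055 without late pregnancy HM pool 1 and -0.0036 without lactation MM pool 1. Under the other settings 21 values turned in sign, some of which also lost or gained a call. Of the values that kept their sign, 15 lost and 9 gained a call.

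The correlations did not settle whether replicate numbers pair the libraries. Same-numbered libraries correlated at -0.06 to 0.15 after removing state means, and 3 of 6 numbers matched their own best. The same flock was sampled in both states, and the main tests treated the libraries as unpaired. A replicate block over the 12 numbered libraries gave 16 lower and 20 higher, beside 17 and 21 for the same 12 unblocked, with a median of 0.10. No other count moved by over 1.5 times under the block; EIF6 lost its call with and without the block in these 12 libraries. The effect of pooling ewes, and of reads per library on low genes, was not tested.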

Other observations

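Of the 9 mitochondrial translation factors 5 fell, 1 rose and 3 did not pass. GFM2, which recycles mitochondrial ribosomes, fell from 8.16 to 9.21 down to 4.02 to 5.04 (log2 change -0.94, SE 0.07), TUFM, the mitochondrial counterpart of eEF1A, from a median of 29.4 to 22.8 (-0.37, SE 0.07), and MTIF3, an initiation factor, rose from 30.0 to 36.6 (0.23, SE 0.06).

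Of 6 genes for enzymes that modify EIF5A and EEF2, 3 rose, 1 fell (DPH5, -0.41) and 2 did not pass. DOHH and DHPS, which make the hypusine residue of EIF5A, rose by 0.81 (SE 0.11) and 0.43 (SE 0.07). The EIF5A feature itself collected at most 3 exon reads, so the substrate of these enzymes was not measured here. Both genes of selenocysteine elongation, EEFSEC (0.40) and SECISBP2 (0.20), rose.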
